A study of Mus musculus with 6 samples.

Results

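Kinesins are motor proteins that use ATP to move along microtubules or to take them apart. One set builds the mitotic spindle, lines up the chromosomes and completes cell division, and its genes are transcribed mainly late in the cell cycle. Another set carries vesicles, endosomes, lysosomes and mitochondria and is used in cells at rest as well, macrophages among them, where such motors move lysosomes and endosomes outward. The genes described here are the 39 protein-coding rows, of 54532 rows in the table, whose symbol is Kif followed by a digit. By the list used here 11 of them are mitotic, 13 are transport motors of the kinesin-1, kinesin-2 and kinesin-3 families, and 15 are neither. One of the 15, Kif1bp, encodes a protein that binds kinesins and is not itself a motor. The 3 other rows with such symbols, the pseudogenes Kif4-ps and Kif22-ps and the antisense RNA Kif16bos, had 0 reads.

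The data are bulk RNA-seq of macrophages labelled as primary mouse peritoneal cells, drawn by thioglycollate, taken 4 days later and selected by 6 h of adherence. The SAHH-KO group has 3 libraries of cells in which S-adenosylhomocysteine hydrolase, the product of Ahcy, was targeted (the labels say both SAHH-KO and SAHH knockdown), and the control group has 3 libraries (labelled both shControl and WT). Both groups were stimulated for 8 h with lipopolysaccharide (10 ng/mL) plus interferon-γ (2 ng/mL), so no library shows unstimulated cells. The labels do not give from how many animals or cultures the replicates came, and the p-values reflect sample-to-sample spread that could be purely technical.

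Between 15856261 and 17748745 reads were assigned to genes in SAHH-KO libraries and between 15540442 and 16676534 in control libraries. Ahcy read 5.51, 5.50 and 6.23 FPKM (reads scaled by gene length and library size) in SAHH-KO and 25.8, 22.6 and 24.4 FPKM in control (log2 fold change -1.90, limma adjusted p = 1.44e-06). Its level is uncertain because reads can be split with the copy Gm4737, which averaged 18 ± 2.50 FPKM in SAHH-KO and 66.2 ± 2.51 FPKM in control (SD, n = 3 each). Of 10 macrophage markers 9 reached 1 FPKM in some library and Mertk did not, and their summed level was 9569 to 10854 FPKM in SAHH-KO and 8531 to 8818 FPKM in control. Lyz2 and Cd14 carry most of that sum. SAHH-KO lay wholly above control for 6 of the 9 tested markers and wholly below for 1, where 30.7% of all tested genes lay above and 31.6% below. Of the 9 tested markers 5 were called higher in SAHH-KO and 0 lower, against 26.4% higher and 26.8% lower over all 10362 tested genes. The other 4 were not past the threshold, and the lowest log2 fold change was -0.23. Among the 5, and picked with values known, were Fcgr1 (12.5 ± 2.96 FPKM in SAHH-KO and 2.61 ± 0.117 FPKM in control) and Adgre1 (165 ± 24.5 FPKM in SAHH-KO and 78.9 ± 1.77 FPKM in control). The part of these markers in the results was not tested. Of 12 markers of peritoneal macrophages only Icam2 reached 1 FPKM, and 6 had some reads. The other 6 (Ciita, H2-Aa, H2-Eb1, Cxcl13, Timd4 and Gata6) were at 0 reads throughout, so these 6 listed markers were not detected. The list is of peritoneal macrophages in general and was not made for cells drawn by thioglycollate. Markers of B cells, T and NK cells, mast cells and eosinophils, fibroblasts and mesothelium, and neurons and ciliated cells stayed under 1 FPKM in every library. Of 6 neutrophil markers 4, Ly6g, S100a9, Mpo and Cxcr2, had 0 reads. The summed level of that list was 0 to 0.473 FPKM in SAHH-KO and 4.13 to 5.10 FPKM in control and lay almost wholly in S100a8; its part in the results was not tested.

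Promoter sequence was examined with the values of the mitotic members known. Genes of late cell cycle stages often carry a cell-cycle genes homology region (CHR) near their start, which the MuvB complex binds, and CCAAT boxes bound by NF-Y. RefSeq promoters of build GRCm38.p6, 250 bases before to 50 after the start, were at hand for 32 of the 39 genes, 10 of them mitotic. Kif13b, Kif19a, Kif20a, Kif21b, Kif28, Kif5a and Kif5b were not matched. The CHR was searched as TTTGAA and the NF-Y box by the letters CCAAT, each on both strands, and a match of one can share at most 1 base with a match of the other. A CHR match was present in 9 of 10 mitotic promoters (90.0%), in 1 of 12 promoters of transport genes (8.33%) and in 17.9% of all 32851 promoters in the RefSeq table. Within 100 bases before to 50 after the start it was present in 7 mitotic promoters (70.0%), in 1 transport promoter (8.33%) and in 8.01% of all. Promoters of the other kinesins had it there in 2 of 14 (14.3%). A CCAAT box was in 6 mitotic promoters (60.0%), in 4 transport promoters (33.3%) and in 37.4% of all. The 12 transport promoters belong to 10 genes, and the 4 include both listed windows of Kif1b, which overlap. Both motifs together were in 6 mitotic promoters (60.0%), in 0 transport promoters and in 6.95% of all. Some windows lie wholly inside the gene by the deposited gene coordinates, namely those of the mitotic Kif14, Kif2c and Kif4. For Kif14 the window is 136467598 to 136467897, and the gene starts at 136466343. For Kif2c, on the minus strand, it is 117178723 to 117179022, and the gene begins at 117182639. The transport match, in Kif1a, is inside its gene as well. The counts above include these windows. These matches are descriptions of letters and say nothing of binding or of the difference between the groups.

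The windows from 100 bases before to 50 after the start are printed for the 7 mitotic genes with a CHR there, and then for the mitotic Kif18a and the transport gene Kif3a, which have no CHR. Sequences run 5′ to 3′ on the gene's strand, and capitals mark the CHR and CCAAT matches in either orientation. Coordinates are those of RefSeq's GRCm38.p6.
Kif11, chr19:37376282-37376431, plus strand: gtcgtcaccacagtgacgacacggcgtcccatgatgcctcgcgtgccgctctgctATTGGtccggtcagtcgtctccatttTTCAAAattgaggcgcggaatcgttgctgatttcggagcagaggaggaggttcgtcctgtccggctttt
Kif15, chr9:122950981-122951130, plus strand: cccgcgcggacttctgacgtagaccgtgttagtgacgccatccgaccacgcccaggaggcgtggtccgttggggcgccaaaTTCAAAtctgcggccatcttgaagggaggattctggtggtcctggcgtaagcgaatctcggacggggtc
Kif22, chr7:127042371-127042520, minus strand: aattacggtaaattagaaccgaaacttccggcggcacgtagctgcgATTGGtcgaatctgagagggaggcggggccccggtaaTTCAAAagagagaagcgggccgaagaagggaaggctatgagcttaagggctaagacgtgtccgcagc
Kif23, chr9:61946750-61946899, minus strand: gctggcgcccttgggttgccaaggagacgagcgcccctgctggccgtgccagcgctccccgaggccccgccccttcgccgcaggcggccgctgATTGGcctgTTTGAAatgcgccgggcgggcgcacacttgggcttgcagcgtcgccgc
Kif18b, chr11:102925075-102925224, minus strand: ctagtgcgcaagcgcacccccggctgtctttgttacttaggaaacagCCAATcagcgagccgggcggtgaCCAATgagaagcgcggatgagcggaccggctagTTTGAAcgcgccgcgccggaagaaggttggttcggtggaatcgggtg
Kif20b, chr19:34922258-34922407, plus strand: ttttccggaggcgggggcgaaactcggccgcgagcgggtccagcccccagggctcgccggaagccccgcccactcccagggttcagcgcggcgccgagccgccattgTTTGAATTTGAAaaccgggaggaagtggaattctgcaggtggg
Kif4, chrX:100625965-100626114, plus strand: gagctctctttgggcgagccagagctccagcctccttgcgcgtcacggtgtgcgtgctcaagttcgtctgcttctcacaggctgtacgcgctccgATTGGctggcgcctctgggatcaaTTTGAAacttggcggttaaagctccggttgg
Kif18a, chr2:109280638-109280787, plus strand: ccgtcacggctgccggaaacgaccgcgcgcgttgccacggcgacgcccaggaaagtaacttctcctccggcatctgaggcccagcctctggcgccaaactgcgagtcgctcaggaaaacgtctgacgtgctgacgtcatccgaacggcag
Kif3a, chr11:53567269-53567418, plus strand: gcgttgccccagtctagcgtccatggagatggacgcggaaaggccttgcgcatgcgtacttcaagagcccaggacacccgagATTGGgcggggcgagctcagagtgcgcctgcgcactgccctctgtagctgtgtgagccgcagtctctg

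The letters show how close to the start the motif lies. With the RefSeq start base counted as 1 and the base before it as -1, the CHR began at position -19 in Kif11, -19 in Kif15, -17 in Kif22, 3 in Kif23, 4 in Kif18b and 20 in Kif4. Kif20b held 2 of them end to end, at 8 and 14. A CCAAT match lay upstream of the CHR at -7 in Kif23, -45 in Kif11, -54 in Kif22, -53 and -30 in Kif18b and -5 in Kif4. The remaining CHR matches of mitotic genes were farther upstream, at -103 in Kif2c and -228 in Kif14 and as second matches at -234 in Kif15 and -215 in Kif22, and the transport match was in 1 of the 2 listed promoters of Kif1a, a gene with 1 read over all libraries together. The plot of motif matches shows most mitotic rows with a CHR near the start and 1 transport row with any.

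**Figure D1:**
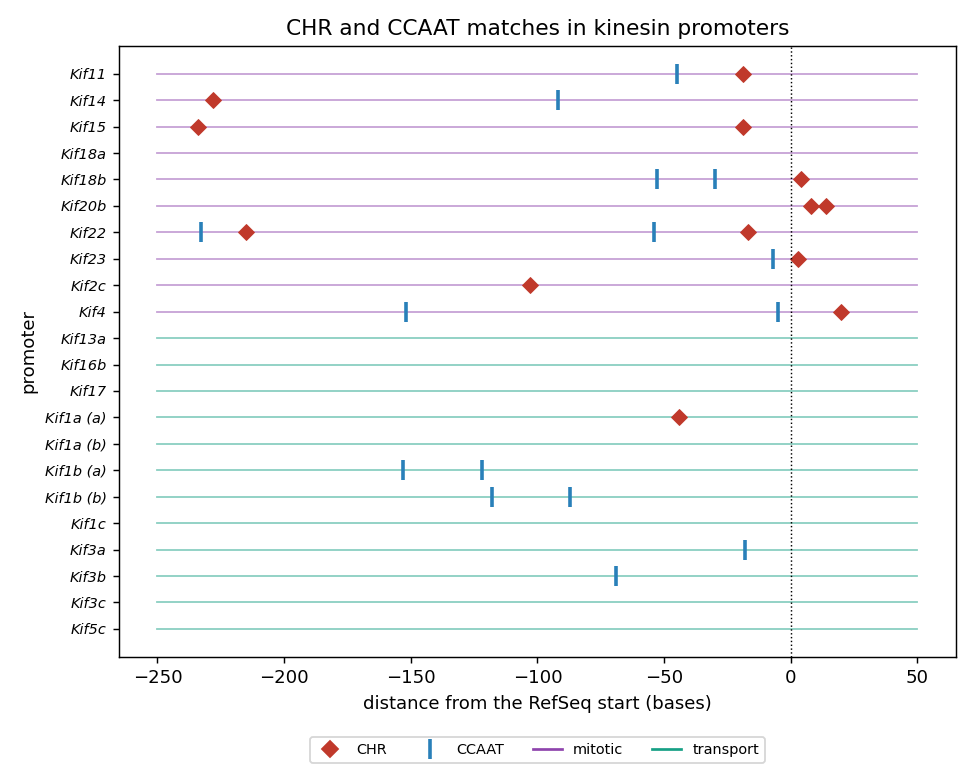
Matches of CHR (diamonds) and CCAAT (bars) in RefSeq promoters of mitotic (purple lines) and transport (green lines) kinesin genes, by distance in bases of the first matching base from the start (dotted line). CHR is present in 9 of 10 mitotic promoters and in 1 of 12 transport promoters; a and b are alternative promoters of 1 gene. The windows of Kif2c, Kif14, Kif4, Kif17 and the Kif1a promoter with a CHR lie wholly inside the gene.

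In SAHH-KO cells all 11 mitotic kinesins fell. Their median log2 fold change was -1.75, where 26.8% of all 10362 tested genes were called lower and the median over those genes was -0.01. Control means were 2.81 to 5.71 times the SAHH-KO means, and no mitotic gene had overlapping groups, where SAHH-KO lay wholly below control for 31.6% of genes. For 10 of the 11 the SAHH-KO mean was at most 1/3 of the control mean, which held together with a lower call for 2.41% of all tested genes. The test was limma on log2(FPKM + 1), with adjusted p under 0.05 as the threshold, and this scale understates changes of low genes. All 11 were tested, but Kif14 and Kif18a passed the filter (at least 1 FPKM in at least 3 libraries) through control values alone. With no filter on low values the 11 were still called lower, against 11.3% of 22729 genes called lower and 23.3% called either way. By limma-voom on reads all 11 were lower, against 26.9% of 11960 genes called lower and 53.6% called either way. Peritoneal macrophages drawn by thioglycollate are known to divide little, while the means of mitotic kinesins were 0.566 to 3.64 FPKM in SAHH-KO and 1.78 to 17.3 FPKM in control. What the control levels represent was not tested. In bulk RNA, fewer dividing cells and less RNA per dividing cell cannot be told apart.

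Spindle assembly motors come first. Kif11 (chromosome 19, bases 37376403 to 37421859, plus strand), the kinesin-5 that slides antiparallel microtubules apart to make the spindle bipolar, read 2.63, 3.97 and 3.34 FPKM in SAHH-KO and 13.9, 18.1 and 16.6 FPKM in control. The highest SAHH-KO value lay far below the lowest control value (log2 fold change -2.0, SE 0.138, limma adjusted p = 1.15e-05). Kif15 (chromosome 9, bases 122951046 to 123018733, plus strand), a kinesin-12 that works beside Kif11, read 0.611, 1.19 and 0.843 FPKM in SAHH-KO and 2.76, 3.85 and 3.47 FPKM in control (log2 fold change -1.22, limma adjusted p = 2.12e-04). It was one of the lowest of the class in both groups. Kif2c (chromosome 4, bases 117159639 to 117182639, minus strand), also known as MCAK, a microtubule depolymerase that corrects wrong chromosome attachments, read 1.38, 2.83 and 2.62 FPKM in SAHH-KO and 11.8, 12.4 and 11.5 FPKM in control (log2 fold change -2.01, SE 0.170, limma adjusted p = 3.26e-05). Its control values were close together, and SAHH-KO replicate 1 was well under the other two.

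The chromosome motors fell as well. Kif4 (chromosome X, bases 100625737 to 100727214, plus strand), a chromokinesin that acts with Prc1 at the spindle midzone, read 1.01, 1.64 and 1.21 FPKM in SAHH-KO and 6.35, 7.66 and 6.11 FPKM in control (log2 fold change -1.75, SE 0.129, limma adjusted p = 1.56e-05). Kif22 (chromosome 7, bases 127027729 to 127042471, minus strand), or Kid, which pushes chromosome arms towards the spindle equator, read 1.69, 2.43 and 2.25 FPKM in SAHH-KO and 8.82, 9.05 and 8.38 FPKM in control (log2 fold change -1.65, SE 0.108, limma adjusted p = 8.58e-06). In both genes the groups were separated by a wide gap. The kinesin-8 genes had the smaller ratios. Kif18b (chromosome 11, bases 102905529 to 102925124, minus strand), whose product acts on astral microtubules, read 3.03, 4.52 and 3.37 FPKM in SAHH-KO and 11.2, 9.50 and 9.94 FPKM in control, so that control was 2.81-fold higher (log2 fold change -1.28, limma adjusted p = 8.39e-05). Kif18a (chromosome 2, bases 109280738 to 109341747, plus strand), which damps chromosome movements at the metaphase plate, read 0.489, 0.628 and 0.582 FPKM in SAHH-KO and 1.37, 2.29 and 1.69 FPKM in control, so that control was 3.15-fold higher. Its log2 fold change of -0.82 (limma adjusted p = 0.00127) was the smallest of the class.

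Cytokinesis motors completed the class. Kif20a (chromosome 18, bases 34624624 to 34633265, plus strand), or MKLP2, which brings the Aurora B complex to the midzone, read 2.12, 4.31 and 3.34 FPKM in SAHH-KO and 17.6, 18.6 and 15.8 FPKM in control, where it was the most abundant of the class. Its log2 fold change of -2.14 (SE 0.177, limma adjusted p = 2.95e-05) was the largest in size of the 24 kinesin genes tested. Kif23 (chromosome 9, bases 61915905 to 61946774, minus strand), or MKLP1, the motor subunit of centralspindlin, read 1.71, 2.42 and 2.15 FPKM in SAHH-KO and 9.11, 9.90 and 9.57 FPKM in control, and had the smallest adjusted p of the class (log2 fold change -1.77, SE 0.105, limma adjusted p = 5.15e-06). Kif20b (chromosome 19, bases 34922361 to 34975745, plus strand), needed for the last steps of cytokinesis, read 1.30, 2.09 and 1.87 FPKM in SAHH-KO and 7.71, 10.8 and 8.58 FPKM in control (log2 fold change -1.87, limma adjusted p = 2.37e-05). Kif14 (chromosome 1, bases 136466343 to 136531511, plus strand), which binds citron kinase at the midbody, read 0.604, 0.806 and 0.508 FPKM in SAHH-KO and 3.55, 3.96 and 3.43 FPKM in control. Its ratio of 5.71 was the widest of the mitotic genes, although its log2 fold change with the pseudocount was -1.51 (limma adjusted p = 1.34e-05).

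**Figure D2:**
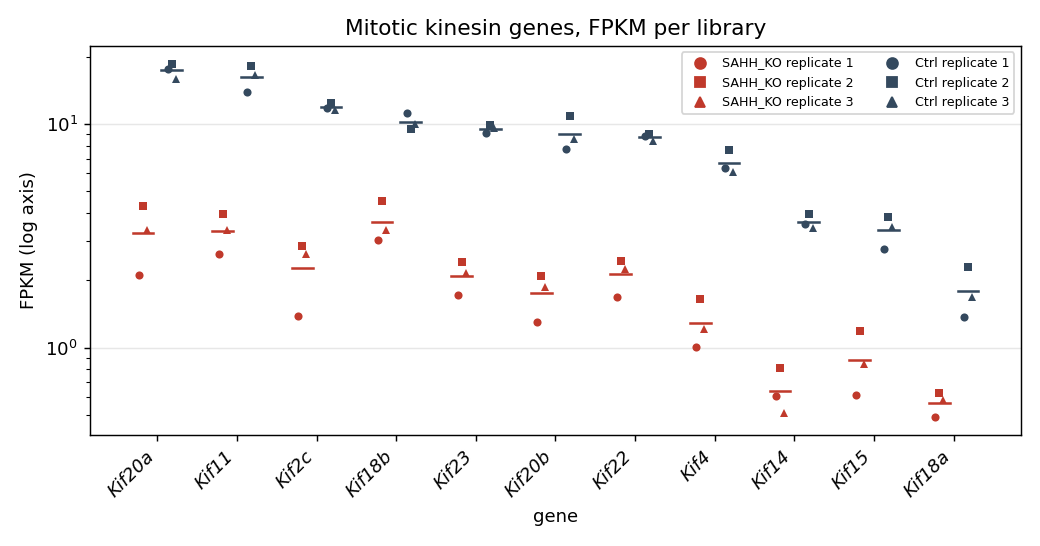
FPKM (log axis) of the 11 mitotic kinesin genes in SAHH-KO (red, left of each pair) and control (dark, right) libraries, with a bar at each group mean and 1 marker shape per replicate number. No gene has overlapping groups, and SAHH-KO replicate 2 is the highest red marker for all 11.

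The mitotic members also varied together within a group. SAHH-KO replicate 2 was the highest of its group for 11 of 11 genes and SAHH-KO replicate 1 the lowest for 10 of 11, and control replicate 2 was the highest of its group for 10 of 11. Summed over the class, the libraries held 16.6, 26.8 and 22.1 FPKM in SAHH-KO and 94.2, 106 and 95.1 FPKM in control. Each member rested on 80 to 291 reads per SAHH-KO library and 226 to 1433 per control library. Members did not keep fixed proportions: Kif18b stood at 1.43, 1.05 and 1.01 times the FPKM of Kif20a in SAHH-KO and at 0.636, 0.512 and 0.629 times in control. This pair was chosen after its values were seen and was not tested.

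Exon overlap limits a pair of these genes. Kif20a shares 29.3% of its exon bases with Cdc23 and Kif4 15.1% with Pdzd11, each on the opposite strand, and the use of strand in counting is not stated, so such reads cannot be told apart. Cdc23 averaged 3.25 ± 0.0455 FPKM in SAHH-KO and 4.76 ± 0.310 FPKM in control, and Pdzd11 10.2 ± 0.585 FPKM in SAHH-KO and 13.8 ± 1.51 FPKM in control (SD, n = 3 each). Of the mitotic members Kif11 shared the most 50-base words with transcripts of other genes, 1.97%.

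Transport kinesins had no common direction. Of 13 members 9 were tested, and 1 fell and 4 rose, with a median log2 fold change of 0.15. Over all tested genes 26.8% were called lower and 26.4% higher, and 53.3% either way. The 5 calls among 9 members were close to that last rate, so their number does not set the class apart. The balance of higher and lower calls was not tested. The calls of Kif5b, Kif3a and Kif1b ended in some settings, as given below. SAHH-KO lay wholly above control for 4 of the 9 and wholly below for 1, where it lay above for 30.7% of genes, below for 31.6% and either for 62.3%. Their summed level was 98.6, 92.7 and 97.9 FPKM in SAHH-KO and 102, 97.9 and 97.8 FPKM in control. These ranges overlap.

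Kinesin-1 uses the heavy chains Kif5a, Kif5b and Kif5c with light chains to carry lysosomes, mitochondria and vesicles. Kif5b (chromosome 18, bases 6201002 to 6242174, minus strand), the heavy chain of most tissues, read 24.8, 26.5 and 26.6 FPKM in SAHH-KO and 28.6, 39.7 and 33.0 FPKM in control. It fell (log2 fold change -0.36, SE 0.117, limma adjusted p = 0.0318), but the call ended without the filter on low values (adjusted p = 0.0891) and when any library other than control replicate 1 was left out (adjusted p = 0.0593 to 0.0982, limma). Kif5a, known as a neuronal heavy chain, averaged 3.30 ± 0.254 FPKM in SAHH-KO and 2.88 ± 0.439 FPKM in control (limma adjusted p = 0.270, interval of the log2 fold change -0.10 to 0.41). Kif5c had 19 reads in all of SAHH-KO and 5 in all of control.

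Kinesin-2 motors work as the Kif3a and Kif3b pair with the adaptor Kifap3, and Kif3c can also pair with Kif3a. Kif3c (chromosome 12, bases 3365132 to 3406494, plus strand) read 4.80, 3.50 and 4.73 FPKM in SAHH-KO and 2.75, 2.71 and 2.78 FPKM in control. Every SAHH-KO library lay above every control library, and it rose (log2 fold change 0.50, SE 0.115, limma adjusted p = 0.00650). Antisense genes on the other strand cover 43.3% of its exon bases. The one of them with reads, 1110002L01Rik, averaged 3.16 ± 0.0459 FPKM in SAHH-KO and 3.65 ± 0.143 FPKM in control. Kif3a rose slightly, with 6.65, 7.0 and 6.85 FPKM in SAHH-KO against 5.88, 5.68 and 5.55 FPKM in control (log2 fold change 0.22, limma adjusted p = 0.0366). That call ended with scaling to TPM (log2 fold change 0.08, adjusted p = 0.397), with limma-voom on reads (adjusted p = 0.0617) and without any one library other than control replicate 1 (adjusted p = 0.0542 to 0.127, limma). Kif3b averaged 9.20 ± 0.310 FPKM in SAHH-KO and 8.85 ± 0.425 FPKM in control (interval -0.13 to 0.23, limma adjusted p = 0.612), and its small difference turned negative with scaling to TPM. Kif17, a kinesin-2 of neurons, had 43 reads in SAHH-KO libraries together and 9 in control.

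Kinesin-3 members carry endosomes and other membranes. Kif13b (chromosome 14, bases 64647265 to 64809617, plus strand) rose, with 2.24, 2.17 and 2.18 FPKM in SAHH-KO against 1.49, 1.27 and 1.25 FPKM in control (log2 fold change 0.45, SE 0.0933, limma adjusted p = 0.00381). The 3 SAHH-KO values were almost equal and above all control values. Kif1b, a mitochondrial and vesicle motor, averaged 5.39 ± 0.427 FPKM in SAHH-KO and 4.04 ± 0.157 FPKM in control and rose (log2 fold change 0.34, limma adjusted p = 0.0111), but not with scaling to TPM (adjusted p = 0.0691, limma) or without control replicate 3 (adjusted p = 0.0510, limma). Kif1c, which regulates podosomes in human macrophages, was among the most abundant kinesins at 35.4, 30.4 and 32.7 FPKM in SAHH-KO and 40.5, 26.2 and 33.7 FPKM in control. Its groups overlapped (log2 fold change -0.01, interval -0.34 to 0.33, limma adjusted p = 0.968). Kif16b, an early endosome motor, also overlapped, at 5.40 ± 0.824 FPKM in SAHH-KO and 5.83 ± 0.486 FPKM in control (interval -0.36 to 0.16). Kif13a, a recycling endosome motor, had 0.670 ± 0.138 FPKM in SAHH-KO and 0.634 ± 0.0891 FPKM in control and was not tested. Kif1a had 1 read in SAHH-KO and 0 in control.

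**Figure D3:**
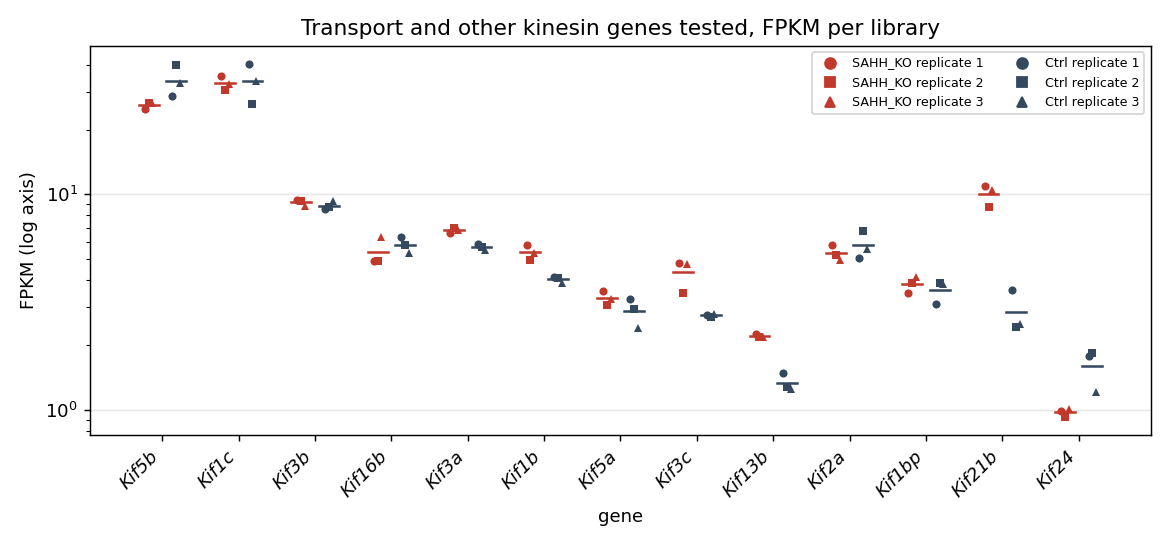
FPKM (log axis) of the 9 transport genes tested (Kif5b to Kif13b) and the 4 other kinesin genes tested (Kif2a to Kif24), in SAHH-KO (red, left of each pair) and control (dark, right) libraries with a bar at each group mean. Kif21b has SAHH-KO values of 8.72 to 11 FPKM, all above control, while Kif1c and Kif16b overlap.

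Among the remaining 15 genes 4 were tested, and Kif21b changed most. Kif21b (chromosome 1, bases 136131389 to 136177998, plus strand), a kinesin-4 that restrains microtubule growth, read 11, 8.72 and 10.5 FPKM in SAHH-KO and 3.59, 2.42 and 2.50 FPKM in control. It was 3.54-fold higher and the groups were far apart (log2 fold change 1.53, SE 0.136, limma adjusted p = 4.38e-05). By mean level it ranked 3 of the 39 genes in SAHH-KO and 20 in control. Kif24, a kinesin-13 of the centriole, read 0.983, 0.926 and 1.01 FPKM in SAHH-KO and 1.77, 1.83 and 1.21 FPKM in control and fell (log2 fold change -0.39, limma adjusted p = 0.0241). It reached 1 FPKM in 1 SAHH-KO library, and the call ended without the filter (adjusted p = 0.0777) and without any one library other than control replicate 3 (adjusted p = 0.0563 to 0.0676, limma). Kif2a, a kinesin-13 depolymerase like Kif2c but active outside mitosis too, averaged 5.34 ± 0.434 FPKM in SAHH-KO and 5.79 ± 0.862 FPKM in control (log2 fold change -0.10, interval -0.35 to 0.16, limma adjusted p = 0.50), and it shares 19.2% of its exon bases with the opposite-strand gene Dimt1. Kif1bp averaged 3.83 ± 0.342 FPKM in SAHH-KO and 3.61 ± 0.442 FPKM in control, and its groups overlapped.

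Below the filter, 9 members in all had some reads. Kif7, a regulator of Hedgehog signalling at the cilium tip, read 0.80, 0.631 and 0.738 FPKM in SAHH-KO and 0.104, 0.0533 and 0.256 FPKM in control. These values rest on 157 reads in SAHH-KO and 33 in control, a ratio of 5.14 after scaling (95% interval 3.51 to 7.72, exact binomial, counting error only). The control reads were 8, 4 and 21, and without control replicate 3 the ratio was 9.18, outside that interval. An antisense gene with 0 reads and Ticrr cover 20.3% of its exon bases. Kif7 was called higher by limma without the filter (adjusted p = 0.00492) and by limma-voom on the reads (adjusted p = 1.74e-04), where 12.0% and 26.6% of genes were called higher. Kif21a, the relative of Kif21b, stood at 0.748 ± 0.124 FPKM in SAHH-KO and 1.09 ± 0.177 FPKM in control and was called lower by limma-voom (adjusted p = 0.0368) but not by limma without the filter (adjusted p = 0.154). Kif9 had 53 reads in SAHH-KO and 26 in control, Kif19a 10 in SAHH-KO and 7 in control, and Kif28 1 in each group. Kif26a, Kif26b, Kif12, Kif2b, Kif27 and Kif6 had 0 reads in all 6 libraries.

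**Figure D4:**
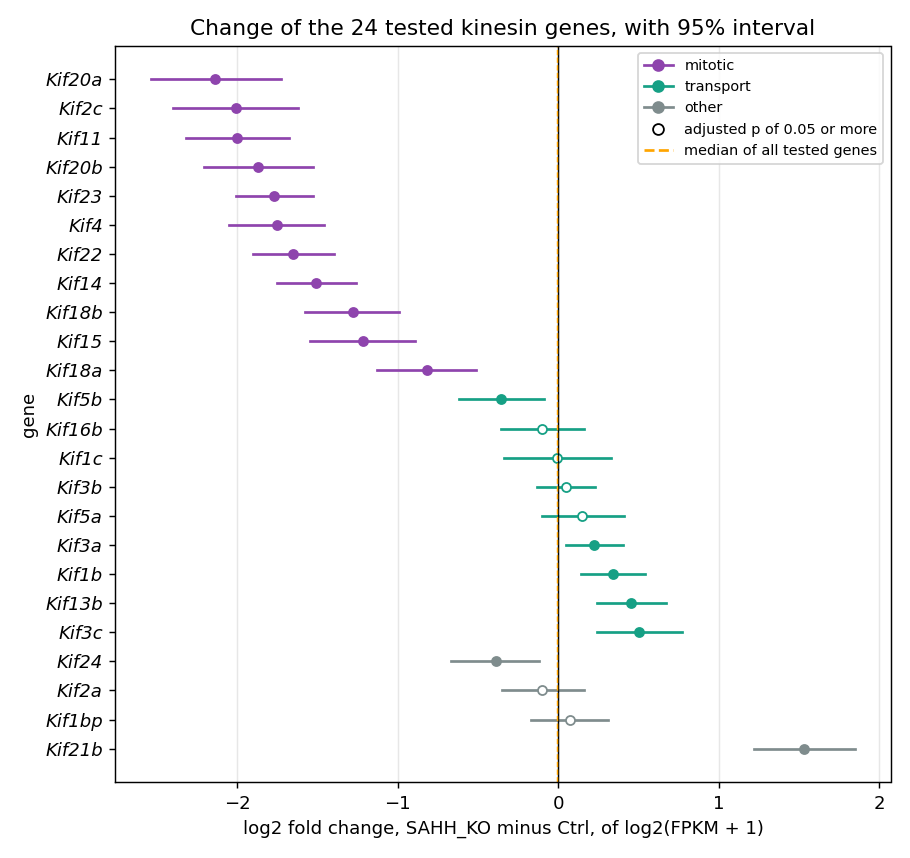
Log2 fold change, SAHH-KO minus control, of log2(FPKM + 1) for the 24 tested kinesin genes, with 95% limma intervals; filled points passed adjusted p under 0.05, and the dashed line is the median of all tested genes (-0.01). All 11 mitotic genes lie at -0.82 or below, the transport genes between -0.36 and 0.50, and Kif21b at 1.53.

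The makeup of the kinesin transcripts shifted with the mitotic class. By summed FPKM, a level per gene length, mitotic genes gave 12.0%, 19.2% and 15.5% of the total over the 39 genes in SAHH-KO and 44.6%, 48.2% and 45.8% in control. Transport genes gave 68.8 ± 2.45% in SAHH-KO and 46.7 ± 2.07% in control, and the others 15.7 ± 1.17% in SAHH-KO and 7.14 ± 0.273% in control (SD, n = 3 each). The others summed to 22.0 FPKM in SAHH-KO and 15.2 FPKM in control, and Kif21b alone gave 10.1 and 2.84 FPKM of these. The total over all 39 was 140.2 ± 1.92 FPKM in SAHH-KO and 213 ± 6.74 FPKM in control. By mean level Kif20a ranked 14 and Kif11 ranked 12 in SAHH-KO, behind Kif1c, Kif5b and Kif21b at the top, while in control they ranked 3 and 4, behind Kif5b and Kif1c. These sums are given without a test.

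**Figure D5:**
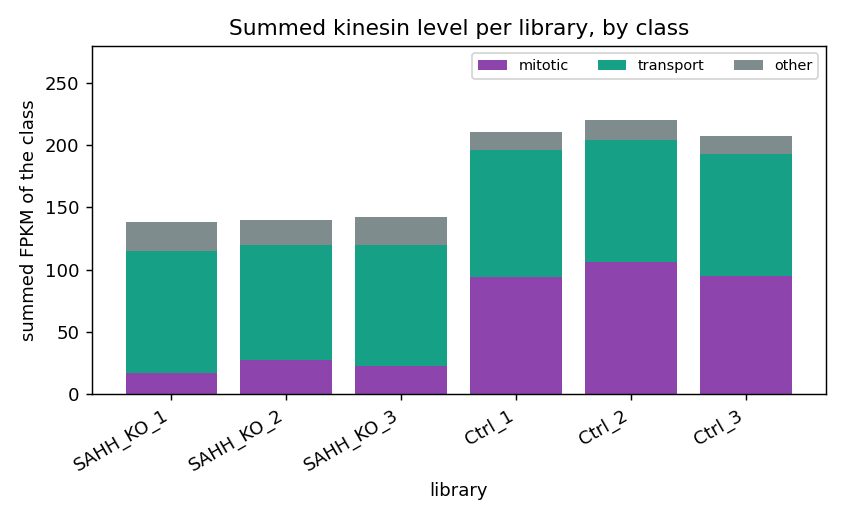
Summed FPKM of the mitotic, transport and other kinesin genes in each library, SAHH-KO left and control right. The mitotic part is 16.6 to 26.8 FPKM in SAHH-KO and 94.2 to 106 FPKM in control, while the transport part is 92.7 to 98.6 FPKM in SAHH-KO and 97.8 to 102 FPKM in control.

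Kif21b and Kif14, which moved in opposite directions, are neighbours on chromosome 1 of GRCm38. Both are on the plus strand, 288 kb apart. Of 10 genes between them 2 were tested. Camsap2, which binds microtubule minus ends, averaged 2.95 ± 0.219 FPKM in SAHH-KO and 4.07 ± 0.227 FPKM in control and was called lower (limma adjusted p = 0.00953), and Ddx59 was not called (adjusted p = 0.666, limma). This stretch was picked with the values known. The mitotic genes Kif20b and Kif11 lie 2401 kb apart on chromosome 19.

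Of 5 kinesin genes with other names 4 were tested and 3 fell, against 26.8% of all tested genes called lower. Cenpe, the kinetochore motor that brings chromosomes to the plate, read 4.16, 5.46 and 4.92 FPKM in SAHH-KO and 13.4, 17.4 and 15.3 FPKM in control (log2 fold change -1.48, limma adjusted p = 2.59e-05). Kifc1, a minus-end motor of the spindle, averaged 5.04 ± 1.16 FPKM in SAHH-KO and 12.1 ± 1.63 FPKM in control, and the related Kifc5b, whose reads may be split with Kifc1, 3.33 ± 0.862 FPKM in SAHH-KO and 7.78 ± 1.46 FPKM in control.

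Partners of the mitotic kinesins at the spindle and midzone fell in 23 of 24 cases, against 26.8% of all tested genes called lower, with a median log2 fold change of -1.45. Of the 23, Cit passed the filter through control values alone, and Rhoa alone did not pass the test (adjusted p = 0.326, limma). The 4 with the smallest p were the kinase genes Plk1 and Aurka and the chromosomal passenger genes Birc5 and Cdca8. Plk1 averaged 8.51 ± 0.638 FPKM in SAHH-KO and 36.9 ± 2.81 FPKM in control, Aurka 10.2 ± 1.07 FPKM in SAHH-KO and 38.1 ± 1.36 FPKM in control, and Cdca8 4.62 ± 0.390 FPKM in SAHH-KO and 14.0 ± 0.374 FPKM in control. Survivin, the product of Birc5, works in the Aurora B complex that Kif20a moves. Birc5 read 2.07, 2.57 and 2.62 FPKM in SAHH-KO and 11.5, 12.5 and 13.1 FPKM in control. Binding partners of members, picked with values known, were lower too: Racgap1, the partner of Kif23, averaged 3.88 ± 0.447 FPKM in SAHH-KO and 12.1 ± 0.449 FPKM in control, and Prc1, the partner of Kif4, 1.95 ± 0.122 FPKM in SAHH-KO and 7.97 ± 0.865 FPKM in control. The list was chosen with the fall of proliferation genes in these libraries known, so it is no separate support.

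Of 14 tested regulators of late cell-cycle genes 9 fell and 2 rose, against 26.8% lower and 26.4% higher over all tested genes. Foxm1, an activator of these genes, read 3.18, 3.91 and 3.67 FPKM in SAHH-KO and 12.3, 9.92 and 9.88 FPKM in control (log2 fold change -1.35, SE 0.110, limma adjusted p = 2.74e-05). E2f1 averaged 3.0 ± 0.185 FPKM in SAHH-KO and 10.5 ± 1.32 FPKM in control, and E2f8, which passed the filter through control values alone, 0.587 ± 0.108 FPKM in SAHH-KO and 3.59 ± 0.303 FPKM in control. The higher ones were Cdkn1a, which encodes the cell-cycle inhibitor p21, at 169 ± 5.49 FPKM in SAHH-KO and 43.8 ± 3.26 FPKM in control, and Trp53, picked with its values known, at 58.9 ± 1.44 FPKM in SAHH-KO and 37.9 ± 1.61 FPKM in control.

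Subunits and cargo adaptors of transport kinesins rose in 9 and fell in 5 of 19 tested, against 26.8% lower and 26.4% higher over all tested genes, with a median log2 fold change of 0.15. Hap1, which links cargo to kinesin-1 and dynactin, read 8.52, 7.69 and 7.82 FPKM in SAHH-KO and 0.412, 0.0648 and 0.208 FPKM in control, with no overlap (log2 fold change 2.88, limma adjusted p = 8.61e-07). It passed the filter through SAHH-KO values alone, and its control values rest on 26, 4 and 14 reads. Its mean was 35.1 times that of control, and 58.7 times without control replicate 1. The kinesin light chain gene Klc2 averaged 18.3 ± 2.06 FPKM in SAHH-KO and 9.93 ± 0.570 FPKM in control. Fyco1, which links late endosomes to kinesin-1, averaged 6.57 ± 0.308 FPKM in SAHH-KO and 3.54 ± 0.260 FPKM in control, and Mapk8ip3, a kinesin-1 adaptor, 6.31 ± 0.683 FPKM in SAHH-KO and 2.55 ± 0.535 FPKM in control. Kifap3, the adaptor of Kif3a and Kif3b, and Arl8b, the lysosomal GTPase that recruits Kif5b, were lower and were picked with values known. Kifap3 averaged 5.20 ± 0.676 FPKM in SAHH-KO and 7.41 ± 0.748 FPKM in control, and Arl8b 22.4 ± 0.890 FPKM in SAHH-KO and 41.5 ± 6.87 FPKM in control.

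Of 22 tested genes of dynein, the minus-end motor, and dynactin, 3 rose and 5 fell (median log2 fold change 0.04), and 53.3% of all tested genes were called either way. The heavy chain gene Dync1h1 read 76.6, 71.8 and 80.0 FPKM in SAHH-KO and 38.7, 29.3 and 26.6 FPKM in control, and rose (log2 fold change 1.26, SE 0.132, limma adjusted p = 1.06e-04). Dync1i2, a dynein intermediate chain, averaged 23.3 ± 0.635 FPKM in SAHH-KO and 15.9 ± 2.06 FPKM in control and rose. Nde1, a dynein regulator, averaged 12.2 ± 0.739 FPKM in SAHH-KO and 20.4 ± 1.63 FPKM in control, and Actr1b, of the dynactin filament, 18.1 ± 0.515 FPKM in SAHH-KO and 27.3 ± 3.72 FPKM in control, and both fell. Of 11 tested tubulin genes 7 fell and 2 rose, against 26.8% lower and 26.4% higher over all tested genes. Their median log2 fold change was -0.80, with a range of -1.13 to 0.98. Tubb4b averaged 65.8 ± 7.74 FPKM in SAHH-KO and 145 ± 4.87 FPKM in control, and Tubg1, the tubulin of the nucleating ring complex, 12.4 ± 0.433 FPKM in SAHH-KO and 25.0 ± 1.29 FPKM in control.

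The balance of calls over all genes depends on scaling, which bears on the small transport differences. With the deposited scaling SAHH-KO was higher for 2736 genes and lower for 2782. With TPM it was higher for 2014 and lower for 3898, with the median of all tested genes at -0.15 on the log2 scale. The median of the transport class was then 0.03 and that of the mitotic class -1.87. With TPM, Kif3c and Kif13b were still called higher, Kif5b was still called lower, and the calls of Kif1b and Kif3a ended.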

How the data were processed

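Messenger RNA was measured in 6 libraries (3 per group; 1.3 µg of total RNA and a SMARTer mRNA kit, per the labels' protocols), grouped by the library names in the labels. The authors deposited 1 table of FPKM per gene. Per the submitters' processing notes FastQC, Trim Galore, STAR and featureCounts were used with GRCm38 and mm10; versions, strand and the way to FPKM are not given in the sources used here. All 39 kinesin identifiers are in GENCODE M21 and 38 have the same coordinates there.

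In each library the smallest value above 0 of FPKM times gene length was taken as 1 read, which also gave the library size. In that unit 100% of values above 0 were whole reads, within 0.01 of a read. The deposited library sizes equal median-of-ratios size factors (ratio 1.000) and were 0.937 to 0.960 times the assigned reads in SAHH-KO and 1.055 to 1.072 times in control. For a gene of 1 kb, 3 reads are worth 0.180 to 0.197 FPKM in SAHH-KO and 0.168 to 0.183 FPKM in control. No molecular identifiers are recorded in the labels or the file, so the binomial intervals and the read floors cover counting error only, while limma intervals come from the spread between libraries. Within groups no libraries were identical and the chi-square of reads per degree of freedom was 3.97 to 29.1, so each counted as 1 sample.

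Genes with at least 1 FPKM in at least 3 of 6 libraries (10362) were tested with limma 3.58.1 in R 4.3.3 (trend, two-sided, Benjamini-Hochberg over all tested genes) on log2(FPKM + 1), group as the only term. Folds and shares are of mean FPKM. Alternatives were a pseudocount of 0.1, filters at 0.5 FPKM or none, TPM, assigned reads, limma-voom on recovered reads (at least 10 in at least 3 libraries), a replicate block and leaving out each library (ratios without each library were added after the data were seen). The members and lists were chosen with earlier results of these data known. All members, Ahcy and up to 4 genes per partner list, those with the smallest p past the threshold, are named; others are marked as named after their values were seen. Lists are described by counts and medians, without a test.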

Additional observations from a re-analysis of the deposited data

How the results depend on the processing

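The mitotic calls were the same in all 13 alternatives, 11 of 11 each time, with log2 fold changes from -2.53 to -0.69 and a largest adjusted p of 0.0105 (limma). The transport count of 5 was 3 with TPM, 3 with assigned reads, 4 with limma-voom, 4 without a filter and 2 to 5 when 1 library was left out. The count of other kinesins called, 2, was 3 with the filter at 0.5 FPKM and 4 with limma-voom, which tested 3 more of them. It was 1 to 2 when 1 library was left out. With no filter it stayed at 2, but Kif7 (adjusted p = 0.00492, limma) was called in place of Kif24 (adjusted p = 0.0777, limma). Without a filter 6 members, in place of 15, were untested, because they had 0 reads. Signs that turned were those of genes not called: Kif3b (-0.10 with TPM, -0.09 with assigned reads), Kif1bp (-0.06 with both), and, when 1 library was left out, Kif1c (-0.17 to 0.14), Kif2a (-0.17 to 0.00320) and Kif1bp (-0.01 to 0.12). The cause of these changes was not tested. A replicate block gave 5490 called genes in place of 5518 and 4 transport calls in place of 5, without Kif3a (adjusted p = 0.0637, limma). Over all tested genes, equally numbered libraries deviated together by correlations of 0.10, 0.10 and -0.01 only. Among the mitotic genes replicate 2 was the highest of its group for 11 of 11 in SAHH-KO and 10 of 11 in control. With the block the SE of Kif11 was 0.0835 in place of 0.138, and that of Kif18b was 0.136 in place of 0.129. The labels do not state pairs, so the libraries were not treated as pairs. A batch shared by number was not tested. Reads limit Kif5c, Kif1a, Kif17, Kif19a and Kif28.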
